A study of Mus musculus with 6 samples.

Results

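Levels are described here for 7 genes that encode secreted antagonists of Wnt signaling, *Sfrp1*, *Sfrp2*, *Sfrp4*, *Sfrp5*, *Dkk2*, *Dkk3* and *Wif1*, in uteri of mice given diethylstilbestrol (DES), a synthetic estrogen, as newborns. The genes were chosen by name as members of the antagonist families, and all 7 were rows of both kinds of table, 7 of 24077 genes in the single-cell table and 7 of 30828 in the tissue section tables. Female CD-1 mice had received subcutaneous corn oil (CO) or DES at 1 mg/kg/day on days 1 to 5 after birth, and uteri were collected at 12 months. For single cells, 2 CO uteri were pooled into 1 library and 4 DES uteri into another, after dissociation with trypsin. For spatial transcriptomics, each section came from a different mouse, and the 2 CO and 2 DES sections are told apart by the letters A and B. By the study's text, a pathologist had examined tissue of more mice before 2 mice a group were selected. The examination was for luminal and glandular epithelium in both groups and for uterine adenocarcinoma in the DES sections. Treatment and this choice of tissue cannot be told apart in the section results. CO mice were collected in estrus, whereas DES mice were in persistent estrus, so treatment and cycle history cannot be told apart. The CO B section had a tissue fold, and the study's text describes the DES B section as limited for the identification of clusters.

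Wnt ligands are secreted proteins that bind Frizzled receptors and the LRP5 and LRP6 co-receptors, which stabilizes beta-catenin and switches on TCF/LEF target genes. The antagonists act outside the cell. Secreted frizzled-related proteins (*Sfrp* genes) carry a Frizzled-like cysteine-rich domain and bind Wnt ligands, and WIF1 also binds the ligands, whereas Dickkopf proteins bind LRP5 and LRP6. DKK3 is a divergent Dickkopf whose action on the pathway is less settled. In the uterus Wnt signaling is known for its part in the patterning of the reproductive tract and in the formation of endometrial glands.

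By the GENCODE vM21 annotation of GRCm38, all 7 genes are protein coding. *Sfrp1* (ENSMUSG00000031548) lies at chr8:23411502-23449632 and *Sfrp4* (ENSMUSG00000021319) at chr13:19623104-19632994, both on the plus strand. *Sfrp5* (ENSMUSG00000018822) lies at chr19:42197971-42202252 and *Dkk3* (ENSMUSG00000030772) at chr7:112116017-112159057, both on the minus strand. *Wif1* (ENSMUSG00000020218) lies at chr10:121033960-121100650 on the plus strand. *Sfrp2* (ENSMUSG00000027996, chr3:83766321-83774316) and *Dkk2* (ENSMUSG00000028031, chr3:132085292-132180304) share chromosome 3 and the plus strand.

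The promoters of *Dkk2* and *Sfrp2* are shown because these genes differ in the section results, with *Dkk2* higher in the DES sections and *Sfrp2* at overlapping levels. Each is the RefSeq window from 250 bases before to 50 bases after the gene start on GRCm38.p6, plus strand, at chr3:132085042-132085341 for *Dkk2* and chr3:83766071-83766370 for *Sfrp2*. Capitals mark exact matches on either strand to 3 motifs. The TATA box core was searched as TATAAA. The GC box, the element bound by Sp1, was searched as GGGCGG. The arm of the estrogen response element, which binds estrogen receptors when it is repeated in inverted form, was searched as TGACC.
Dkk2: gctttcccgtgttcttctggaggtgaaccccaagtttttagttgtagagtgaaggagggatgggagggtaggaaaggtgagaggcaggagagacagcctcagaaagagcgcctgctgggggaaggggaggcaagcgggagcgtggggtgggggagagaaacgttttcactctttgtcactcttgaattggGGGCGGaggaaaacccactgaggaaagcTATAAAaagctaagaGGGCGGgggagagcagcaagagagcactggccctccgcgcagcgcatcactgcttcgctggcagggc
Sfrp2: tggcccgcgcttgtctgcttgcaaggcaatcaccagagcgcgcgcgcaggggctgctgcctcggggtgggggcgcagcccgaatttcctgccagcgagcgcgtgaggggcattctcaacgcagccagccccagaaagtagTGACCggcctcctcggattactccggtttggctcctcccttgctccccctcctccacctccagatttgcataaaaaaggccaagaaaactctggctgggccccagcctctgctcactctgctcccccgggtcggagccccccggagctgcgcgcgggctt
The *Dkk2* window held the TATA box core at -32 to -27 from the start and the GC box at -60 to -55 and at -17 to -12. The *Sfrp2* window held the estrogen element arm at -110 to -106 and neither of the other motifs. Of all 32851 promoter windows of this length, 13.6% held the TATA box core, 35.7% the GC box and 40.5% the estrogen element arm. The TCF/LEF core TCAAAG, searched on both strands like the others and present in 16% of all windows, was in none of the 4 members' windows found in the table (*Sfrp2*, *Sfrp5*, *Dkk2* and *Wif1*). These windows held 11 CpG dinucleotides in *Dkk2*, 22 in *Sfrp2*, 15 in *Sfrp5* and 25 in *Wif1*, and the median window held 7. Windows of *Sfrp1*, *Sfrp4* and *Dkk3* were not analysed here.

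Unique molecular identifiers (UMIs, 1 per captured transcript) had a median of 6779 over the 32387 CO cells and of 10150 over the 16312 DES cells. The cell types were those the authors had assigned, to 12253 CO and 9701 DES cells. The libraries shared 180 cell barcodes. Markers of the mesothelial, endothelial, stromal and epithelial types were highest in the cells carrying those labels, but the CO cells labelled lymphocytes also carried plasma cell markers at a summed 111900 CPM (UMIs scaled to a total of 1000000). Myeloid markers of the CO library were also higher in the cells labelled lymphocytes, at a summed 3328 CPM, than in those labelled myeloid, at 2906 CPM. The DES library held 1 stromal and 5 endothelial cells, so these types could not be compared between libraries. The sections held 1357 to 1834 spots and 9117099 to 12506177 UMIs. With 1 library a condition, single-cell values carry 95% Poisson intervals in parentheses that cover counting error only, and no test was run on them.

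Among the labelled types with at least 50 cells, *Sfrp1* and *Sfrp2* were highest in mesothelial cells of both libraries, although a basal cluster of the DES library held *Sfrp1* at a level that overlapped the mesothelial one. *Sfrp4* and *Dkk3* were both highest in a CO cell group that the authors had named after the gene *Ctla2a*, which also held *Sfrp2*, and *Dkk2* was highest in CO endothelial cells. *Dkk3* also stood high in one glandular cluster of the CO library and in the DES basal cells. *Sfrp5* and *Wif1* were close to absent, with 5 and 10 UMIs in the CO library and 8 and 40 in the DES library. Lymphocytes, which are not known for expressing these genes, are given beside the other types as a reference for background, with the limits that their median depth was 4033 UMIs in the CO and 5599 in the DES library and that they carried myeloid markers at a summed 3328 and 8814 CPM. Lymphocyte markers in the same cells summed to less, at 1088 CPM in the CO and 865 CPM in the DES library. Free RNA was not measured.

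In CO cells, *Sfrp1* stood at 208.7 CPM (205.6 to 211.9) in mesothelial cells, the lining of the outer uterine surface, which gave 56.5% of the library's *Sfrp1* UMIs from 23.5% of all UMIs. It stood at 60.0 CPM (42.3 to 82.8) in myeloid cells, 46.2 (38.6 to 54.9) in *Ctla2a* cells and 38.3 (27.6 to 51.8) in myocytes, whose intervals overlapped. The myeloid value came from 37 UMIs in 67 cells. Mesothelial markers summed to 498, 315 and 334 CPM in these types, beside 121.5 in lymphocytes, 43.9 in epithelial and 2343 in mesothelial cells. The part of carried-over mesothelial RNA in these values was not tested. *Sfrp1* stood at 12.9 CPM (12.1 to 13.7) in epithelial and 8.69 (7.09 to 10.6) in stromal cells, near the 7.12 (4.07 to 11.6) of lymphocytes. The mesothelial level thus lay far above that of every other type with at least 50 cells. After each cell had been thinned to 3000 UMIs, a UMI of *Sfrp1* was found in 40.2% of 6718 mesothelial cells kept of 6866 and in 1.61% of 310 lymphocytes kept of 423. Without thinning the shares were 72.9% and 3.55%, at median depths of 10440 and 4033 UMIs.

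*Sfrp2* stood at 539 CPM (534 to 544) in CO mesothelial cells, which gave 58.5% of its UMIs, and at 410 (387 to 435) in *Ctla2a* cells. It also stood at 827 CPM (742 to 918) in a group of 22 cells named for high *Stmn1*, too few to set beside the others. In stromal cells *Sfrp2* stood at 31.7 CPM (28.6 to 35.1), which overlapped the 24.9 (18.8 to 32.4) of lymphocytes, and its thinned share was 7.44% of 1303 stromal cells beside 7.42% of lymphocytes, so the stromal level could not be told from that of lymphocytes. *Sfrp2* was found in 47.6% of thinned mesothelial cells and in 63.6% of 439 *Ctla2a* cells. The unthinned shares were 65.9% and 80.4%.

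*Sfrp4* was highest in the *Ctla2a* cells, which held it at 687 CPM (656 to 718) and gave 32.0% of its UMIs from 0.789% of all UMIs, and 62.2% of them had a UMI after thinning (72.0% without, at a median depth of 5763), against 0.968% of lymphocytes. These cells also carried stromal markers, at a summed 1627 CPM beside 8060 in stromal cells. Stromal cells followed at 53.0 CPM (48.9 to 57.3) and mesothelial cells at 11 (10.3 to 11.8), both above the 3.56 (1.54 to 7.01) of lymphocytes. Epithelial cells, at 0.838 CPM (0.648 to 1.07), lay below them. *Sfrp5* gave 0 of its 5 CO UMIs in epithelial cells, where a count of 0 in 2562 thinned cells allows up to 0.117% of cells with a UMI at that depth and sets no limit on cells that express the gene.

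Among the Dickkopf genes, *Dkk2* stood at 143 CPM (129 to 158) in CO endothelial cells, at 36.6 (29.8 to 44.4) in *Ctla2a* cells, at 28.4 (13.6 to 52.2) in pericytes and at 21.2 (18.7 to 24.0) in stromal cells. The pericyte interval overlapped those of *Ctla2a* and stromal cells, which lay apart from each other, and the endothelial level lay above them all. A UMI of *Dkk2* was found in 24.5% of 322 thinned endothelial cells (42.2% without thinning, at a median depth of 6309) and in 0.323% of lymphocytes (0.709% without thinning). Epithelial cells at 0.381 CPM and mesothelial cells at 0.253 CPM lay below the 2.22 of lymphocytes. *Dkk3* stood at 72.1 CPM (62.4 to 82.7) in *Ctla2a* cells, and then at 25.5 (11.7 to 48.5) in pericytes, 18.4 (17.5 to 19.3) in mesothelial cells and 15 (12.9 to 17.4) in stromal cells, beside 2.67 (0.980 to 5.81) in lymphocytes. A UMI of *Dkk3* was found in 20.1% of thinned *Ctla2a* cells and in 5.88% of mesothelial cells.

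**Figure D1:**
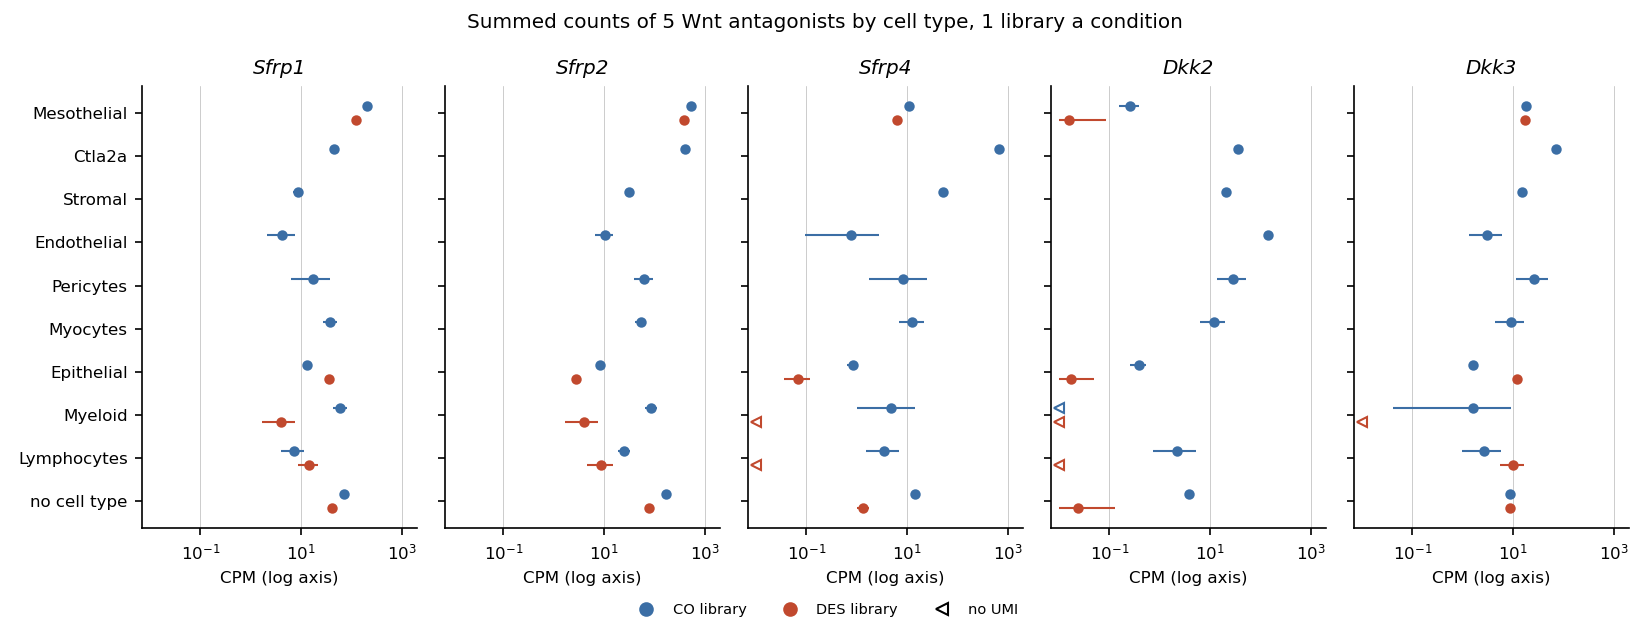
Level of 5 antagonists by cell type, as CPM of summed UMIs on a log axis, with 1 point for each library and cell type of at least 50 cells and bars for 95% Poisson intervals; open triangles mark types with no UMI. *Sfrp1* and *Sfrp2* are highest in mesothelial cells of both libraries, *Sfrp4* reaches 687 CPM in *Ctla2a* cells, and *Dkk2* reaches 143 CPM in endothelial cells of the CO library.

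In the DES library *Sfrp2* was again highest in mesothelial cells, at 392 CPM (387 to 397) and 86.9% of its UMIs, with 8.73 (4.65 to 14.9) in lymphocytes. Cells with no assigned type held 11.3% of the DES and 37.95% of the CO *Sfrp2* UMIs, so shares by type cannot be compared between libraries. Such cells also held 38.8% to 44.3% of the CO UMIs of *Sfrp1*, *Sfrp4*, *Dkk2* and *Dkk3*. *Sfrp1* stood at 123 CPM (121 to 126) in mesothelial cells and at 36.5 (35.6 to 37.4) in epithelial cells, beside 14.1 (8.73 to 21.6) in lymphocytes, and these types gave 49.2% and 39.7% of its UMIs. *Sfrp4* stood at 6.22 CPM in mesothelial cells, and *Dkk2* had 5 UMIs in the whole library of 288919190. No DES cell carried the *Ctla2a* label, so the type with most *Sfrp4* and most *Dkk3* in the CO library had no counterpart. *Dkk3* stood at 16.9 CPM (15.9 to 17.95) in mesothelial and 11.8 (11.3 to 12.4) in epithelial cells, both overlapping the 10.1 (5.64 to 16.6) of DES lymphocytes. Of the 40 *Wif1* UMIs, 39 were in epithelial cells.

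The ratio of *Sfrp2* to *Sfrp1* UMIs differed between types. It was 2.58 in CO mesothelial cells, 3.50 in CO lymphocytes (56 and 16 UMIs), 8.88 in *Ctla2a* cells and 0.656 in CO epithelial cells. In the DES library it was 3.18 in mesothelial, 0.619 in lymphocytes (13 and 21 UMIs) and 0.0743 in epithelial cells.

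UMIs of more than 1 antagonist were counted in mesothelial, *Ctla2a*, stromal and non-basal epithelial cells and lymphocytes. Among these they were found mainly in mesothelial and *Ctla2a* cells. DES basal cells were not counted in this way. *Sfrp1* and *Dkk3* were found together in 47 of 255 thinned cells of basal cluster 11 and in 23 of 350 of basal cluster 8. After thinning, 41.8% of CO mesothelial cells had UMIs of 1 member, 24.5% of 2 members and 1.5% of 3 or more, and 32.2% had none. In the DES library 18.8% of mesothelial cells had 2 members and 1.06% had 3 or more. Of the *Ctla2a* cells, 37.8% had 2 members, 17.3% had 3 or more and 9.11% had none. Exactly 2 members were found in 2.38% of stromal cells, in 0.117% of CO and 0.307% of DES non-basal epithelial cells, and in 0.645% of CO and 0.469% of DES lymphocytes. *Sfrp2* was found in 57.6% of CO mesothelial cells with *Sfrp1* and in 40.8% of those without, and in 54.9% and 51.2% of the DES mesothelial cells. In *Ctla2a* cells it was found in 66.7% of those with *Sfrp4* and in 58.4% of the rest.

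Within the epithelium, *Sfrp1* was spread over the clusters and *Dkk3* was concentrated in few of them. These clusters were formed by the authors on the same counts, so their values are a description. Across the 15 CO epithelial clusters *Sfrp1* ran from 3.31 CPM in cluster 14 (28 cells, 3 UMIs) to 19.8 in cluster 12 (71 cells), with a median of 11.4. Across the 16 non-basal DES clusters it ran from 24.1 in cluster 15 to 42.2 in cluster 10, with a median of 32.1. The lowest DES cluster thus lay above the highest CO cluster in CPM. That CO value came from 35 UMIs, and its counting error reaches the lowest DES value, so the order at this edge is not settled. *Dkk3* reached 102 CPM (82.3 to 125.5) in CO cluster 13, 62 cells that the study's text takes for mature glandular epithelium, which held 91 of the 129 *Dkk3* UMIs of CO epithelial cells. The next CO cluster stood at 3.4 CPM, and the DES clusters at 0.963 to 11.4.

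The basal cells, which in other organs form the lowest layer of a stratified epithelium and which the authors placed in 2 clusters over all epithelial cells, carried the highest epithelial *Dkk3* and *Sfrp1* of the DES library. In cluster 8, with 351 DES cells, *Dkk3* stood at 107 CPM (99.8 to 116) and *Sfrp1* at 69.4 (63.2 to 75.9). In cluster 11, with 257 DES cells, *Dkk3* stood at 154 CPM (142.5 to 167) and *Sfrp1* at 129 (118 to 141). After thinning, *Dkk3* was found in 29.7% and 44.3% of the cells of these clusters, beside 3.29% of 213 DES lymphocytes. Neither cluster had a UMI of *Dkk2*. *Wif1* was concentrated in single clusters, with 5 of 6 CO epithelial UMIs in cluster 12 and 25 of 30 non-basal DES UMIs in cluster 8, at 2.83 and 4.18 CPM. CO cluster 12 also held 10 of the 30 epithelial *Dkk2* UMIs.

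**Figure D2:**
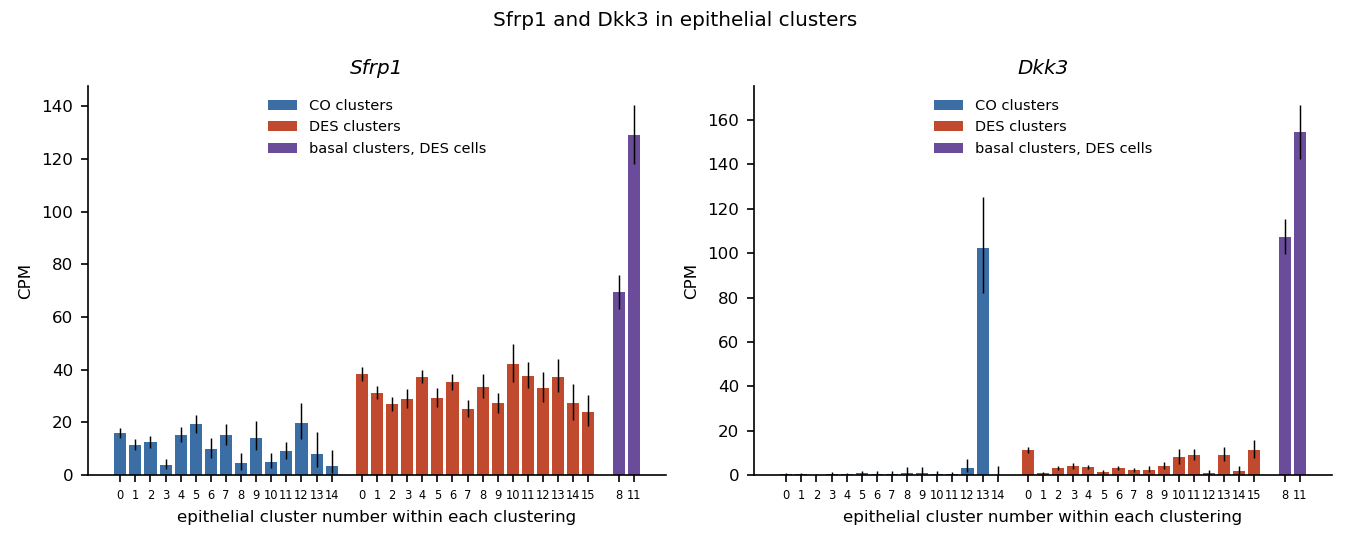
*Sfrp1* and *Dkk3* in each epithelial cluster, as CPM of summed UMIs (bars start at 0) with 95% Poisson intervals, for the CO clusters, the non-basal DES clusters and the DES cells of both basal clusters, numbered as in each clustering. *Sfrp1* lies at 24.1 to 42.2 CPM in the DES clusters and at 3.31 to 19.8 in the CO clusters, and *Dkk3* stands out in CO cluster 13 at 102 CPM and in the basal clusters.

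In non-basal epithelial cells (2583 CO and 4608 DES), *Sfrp1* was higher in the DES library and *Sfrp2* lower. *Sfrp1* stood at 12.9 CPM in the CO and 33.0 in the DES library, a DES to CO ratio of 2.57 (2.40 to 2.75), beside a ratio of 1.98 (0.985 to 4.06) in lymphocytes. Its thinned share was 3.20% of CO and 8.66% of DES cells (28.0% and 54.3% without thinning, at median depths of 23460 and 24660), beside 1.61% and 3.29% of lymphocytes. *Sfrp2* stood at 8.43 and 2.60 CPM, a ratio of 0.309 (0.273 to 0.349), beside a ratio of 0.350 (0.176 to 0.649) in lymphocytes, whose interval held the epithelial ratio, and both values lay below the lymphocyte level of the same library in CPM. Basal markers differed between these cells, at a summed 1.218 CPM in the CO and 85.1 CPM in the DES library with all 3 markers found in both, and the DES basal cells were those with most *Sfrp1* and *Dkk3* of the DES epithelium. Their part in the *Sfrp1* and *Dkk3* values was not tested. Both members that reached 5 CPM passed a 2-fold difference, as did 17.2% of 10119 genes.

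The other 5 members stayed below 5 CPM in both libraries in non-basal epithelium. *Dkk3* stood at 1.64 CPM in the CO and 4.40 in the DES library, a ratio of 2.69 (2.22 to 3.26), below the DES lymphocytes, whose ratio was 3.77 (1.38 to 11.9). *Dkk2* had 30 CO and 3 DES UMIs, a ratio of 0.0480 (0.00938 to 0.155), and *Sfrp4* 66 and 11 UMIs, a ratio of 0.0801 (0.0381 to 0.153). *Wif1* had 6 and 30 UMIs, a ratio of 2.40 (0.984 to 7.06). *Sfrp5* had 0 and 5 UMIs. All of these lie at levels where lymphocytes of the same library had as much or more, or where a few UMIs set the value.

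In mesothelial cells (6866 CO and 3837 DES) all 4 members that reached 5 CPM had ratios below 1 and none passed 2-fold, as 5.11% of 10570 genes did. *Sfrp1* had the ratio 0.591 (0.576 to 0.607), *Sfrp4* 0.564 (0.5 to 0.635) and *Sfrp2* 0.727 (0.716 to 0.739). *Dkk3* stood at 18.4 and 16.9 CPM, a ratio of 0.920 (0.851 to 0.995). The thinned share of *Sfrp1* was 40.2% in the CO and 30.5% in the DES library. That of *Sfrp2* was 47.6% and 52.4%, against the order of the CPM, so no order was read from it. Summed mesothelial markers stood at 2343 and 2486 CPM.

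In the sections, where each spot pools several cells, *Dkk2* and *Sfrp1* were higher in both DES sections than in both CO sections in every kind of spot. *Dkk3* was higher and *Sfrp4* lower in DES in whole sections, muscle-rich spots and epithelium-rich spots without passing the main edgeR test. Under some alternatives that kept every section, *Sfrp4* passed in each of these, and *Dkk3* in muscle-rich and epithelium-rich spots alone. *Sfrp2* overlapped except in muscle-rich spots. At this scale fewer cells of a type and less RNA per cell cannot be told apart. Of the 7 members, 5 passed the filter on low counts in every comparison, and *Sfrp5* (2, 13, 5 and 0 UMIs in CO A, CO B, DES A and DES B) and *Wif1* (0, 0, 1 and 0) did not. Of the *Sfrp5* UMIs of the CO sections, all 15 were in muscle-rich spots.

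*Dkk2* in whole sections stood at 4.08 and 10.9 CPM in CO A and B, and at 88.2 and 37.5 CPM in DES A and B. In the spots of the cluster that the study's text names as stroma in each section it stood at 5.37, 13.0, 247 and 77.9 CPM, from 3, 12, 251 and 27 UMIs. In muscle-rich spots, which are the clusters with smooth muscle markers above the section's level, it stood at 8.57, 6.09, 90.6 and 78.7 CPM. In epithelium-rich spots, chosen likewise by epithelial markers, it stood at 1.85, 12.3, 63.4 and 24.5 CPM. Each DES value lay above both CO values of the same region.

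The log2 fold change of *Dkk2* was 3.99 ± 0.61 (SE, n = 2 sections a group) in stromal spots, where it rose (edgeR quasi-likelihood test, Benjamini-Hochberg adjusted p = 0.0330). It was 3.25 ± 0.28 in muscle-rich spots, where it also rose (edgeR, adjusted p = 0.00161). In whole sections it was 2.86 ± 0.61 (edgeR, adjusted p = 0.0696) and in epithelium-rich spots 2.43 ± 0.89 (edgeR, adjusted p = 0.164; DESeq2, adjusted p = 0.0277). These values depended on single sections, at 2.16 without DES A and 3.69 without CO B in whole sections, and at 1.59 without CO A, 1.62 without DES A and 4.27 without CO B in epithelium-rich spots. The stromal call was lost without DES A (3.0, edgeR adjusted p = 0.0808) and with stromal spots chosen as the top 15% by a marker score (3.46, edgeR adjusted p = 0.0771). The stromal value without CO B was 4.87. The muscle-rich call held under all 9 alternatives. Of the 5 members tested, 1 was called in stromal spots, beside 1.47% of 8914 genes, and 2 in muscle-rich spots, beside 8.37% of 12193 genes.

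The make-up of the spots differed between the same sections. In stromal spots, smooth muscle markers summed to 876 and 700 CPM in CO and to 2883 and 8377 in DES, plasma cell markers to 14.3 and 2002 against 7866 and 38370, and pericyte markers to 670 and 765 against 260 and 378. In muscle-rich spots, smooth muscle markers summed to 39250 and 36460 CPM in CO and to 14830 and 12040 in DES, epithelial markers to 578 and 894 against 1608 and 1976, basal markers to 1.56 and 10.5 against 5578 and 3249, and myeloid markers to 287 and 615 against 830 and 1256. A muscle-rich cluster of each DES section was of mixed make-up. In DES A, cluster 5 with 208 spots lay close to the limit of the rule, at 3156 CPM of smooth muscle markers against 3126 in the section, and held epithelial markers at 3221 CPM. In DES B, cluster 3 with 183 spots and 1100229 UMIs, of 2020407 in that section's muscle-rich spots, held smooth muscle markers at 4887 CPM and epithelial markers at 3106 CPM. Counting muscle-rich clusters alone whose smooth muscle markers exceeded 2 times their epithelial markers, a choice made after seeing the data, left out these 2 clusters and no CO cluster. *Dkk2* then stood at 8.57, 6.09, 89.8 and 92.4 CPM, with a log2 fold change of 3.45 (edgeR, adjusted p = 0.00439), while smooth muscle markers summed to 21280 and 20590, basal markers to 1657 and 1110 and plasma cell markers to 10740 and 17910 CPM in DES. Endothelial markers, of the type with most *Dkk2* in the CO library, summed to 75.0 and 108 CPM in the CO sections and to 46.1 and 50.1 in the DES sections, with all 4 markers found in each. In stromal spots they summed to 213 and 296 against 76.8 and 182 CPM, and in muscle-rich spots to 105 and 134 against 154 and 141. Basal markers summed to 3.36 and 160 against 9526 and 5644 CPM in whole sections, and in stromal spots to 0 and 90.0 against 7058 and 1998, with *Krt14*, *Krt5* and *Trp63* all at 0 in CO A. Over spots with no UMI of these 3 basal markers (1394, 1633, 123 and 90 spots), a choice made after seeing the data, *Dkk2* had a log2 fold change of 3.24 in whole sections and passed the test (edgeR, adjusted p = 0.0220). That choice kept few DES spots and changed more than basal content, since smooth muscle markers summed to 12810, 15880, 14430 and 19700 CPM in the spots kept and plasma cell markers to 236, 486, 17190 and 21570. Plasma cell markers, at 225 and 475 CPM in CO and 3249 and 6098 in DES whole sections, and myeloid markers, at 199 and 453 against 1685 and 873, also moved with the groups. The part of each of these types in the *Dkk2* result was not tested.

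The level of *Dkk2* in the DES sections and in the dissociated DES cells was unlike. DES epithelium-rich spots held it at 24.5 and 63.4 CPM and gave 49.7% and 52.6% of the sections' *Dkk2* UMIs, from 76.0% and 73.1% of all UMIs. The 5255 DES epithelial cells held 3 UMIs of it, or 0.0170 CPM. The DES library held only 1 stromal and 5 endothelial cells and no *Ctla2a* cells, types that carried *Dkk2* in the CO library. Epithelium-rich spots pool several cells and need not hold epithelium alone. The part of these types was not tested. Spots and cells were also prepared and sequenced by different methods, so these values were not tested against each other.

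*Sfrp1* in whole sections stood at 7.84, 14.1, 42.7 and 33.8 CPM in CO A, CO B, DES A and DES B. In stromal spots it stood at 1.79, 9.76, 64.0 and 40.4 CPM, from 1, 9, 65 and 14 UMIs, and in muscle-rich spots at 18.4, 23.9, 50.2 and 57.4 CPM. In epithelium-rich spots it stood at 3.21, 5.98, 37.8 and 27.2 CPM. The groups did not overlap in any of these regions, and among them the CO levels were highest in muscle-rich spots, which held 72.4% and 63.2% of the CO sections' *Sfrp1* UMIs from 30.8% and 37.2% of all UMIs. The spots of CO B that fell in none of these regions held 10.3% of its *Sfrp1* UMIs from 5.94% of all UMIs.

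*Sfrp1* rose in epithelium-rich spots, with a log2 fold change of 2.59 ± 0.37 (SE; edgeR, adjusted p = 0.0270), and in muscle-rich spots, with 1.08 ± 0.25 (edgeR, adjusted p = 0.0435). It was the 1 member called in epithelium-rich spots, beside 5.97% of 13158 genes. In stromal spots its log2 fold change was 2.95 ± 0.58 (edgeR, adjusted p = 0.0518). With every section kept, it passed by DESeq2 (adjusted p = 0.0284) and by edgeR with the replicate block (0.00428), in the top 15% of spots by a marker score (0.0491) and without the filter (6.25e-06). It did not pass by edgeR with DESeq2 size factors (adjusted p = 0.0566). The stromal value was 2.66 without DES A. That value was 4.74 without CO B and 2.36 without CO A, the section with 1 UMI. In whole sections it was 1.60 ± 0.32 (edgeR, adjusted p = 0.0611). The epithelium-rich call was lost without DES A (2.37, edgeR adjusted p = 0.192) and without DES B (2.78, edgeR adjusted p = 0.133). The muscle-rich call was lost without DES A (1.19, edgeR adjusted p = 0.171), without DES B (0.94, edgeR adjusted p = 0.402), under DESeq2 (adjusted p = 0.0980) and without the mixed clusters (1.58, edgeR adjusted p = 0.0620). Basal markers, whose cells carried *Sfrp1* at 69.4 and 129 CPM in the DES library, summed to 4.45 and 81.5 CPM in CO and 10750 and 6457 CPM in DES epithelium-rich spots, and over spots with no basal marker UMI *Sfrp1* had a log2 fold change of 2.22 (edgeR, adjusted p = 0.171) in whole sections. Mesothelial markers overlapped, at 35.4 and 49.1 CPM in CO and 40.8 and 48.0 in DES whole sections. Most of the CO A sum was *Wt1*, at 29.5 CPM in spots with no UMI of *Msln*, *Upk3b* or *Lrrn4*. CO stromal spots summed to 57.3 and 78.0 CPM with those markers at 0, so the sum does not track mesothelial cells alone. Without spots that held a UMI of *Msln*, *Upk3b* or *Lrrn4*, also chosen after seeing the data, the *Sfrp1* value was 1.66.

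*Dkk3* in whole sections stood at 9.44, 58.6, 103.2 and 102.9 CPM in CO A, CO B, DES A and DES B. Epithelium-rich spots held 7.90, 33.8, 105 and 106 CPM, and muscle-rich spots 9.61, 42.6, 70.4 and 94.5 CPM. Most of the UMIs in DES muscle-rich spots came from the mixed clusters, DES A cluster 5 at 112 CPM (57 UMIs) and DES B cluster 3 at 134 CPM (147 UMIs), and without these the DES muscle-rich spots held 47.6 and 47.8 CPM, a log2 fold change of 0.69 (edgeR, adjusted p = 0.698). In stromal spots it stood at 30.4, 205, 138 and 83.7 CPM, where the groups overlapped because CO B was the highest of all. The log2 fold changes were 2.12 ± 0.64 in epithelium-rich spots, 1.39 ± 0.57 in muscle-rich spots and 1.41 ± 0.79 in whole sections, with edgeR adjusted p = 0.114, 0.203 and 0.355. In stromal spots the value was -0.16 ± 0.68. With every section kept, *Dkk3* passed in epithelium-rich spots by DESeq2 (adjusted p = 0.00647) and by edgeR with the replicate block (0.0190) and without the filter (0.0421). In muscle-rich spots it passed by edgeR with the block (0.0112) and without the filter (6.27e-05), where the gene's own spread had no weight. It did not pass there by DESeq2 (adjusted p = 0.0973). In whole sections *Dkk3* passed under no alternative that kept every section (DESeq2, adjusted p = 0.538). Its value without CO B and without CO A was 3.46 and 1.41 in epithelium-rich spots, 2.82 and 0.70 in muscle-rich spots and 3.21 and 0.63 in whole sections. In whole sections over the spots with no basal marker UMI, which also differed in muscle and plasma cell markers as given above, it was -0.18 (edgeR, adjusted p = 0.957). The part of any cell type in the *Dkk3* values was not tested.

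*Sfrp4* in whole sections stood at 47.1 and 200.2 CPM in CO A and B, and at 26.2 and 30.9 CPM in DES A and B. Muscle-rich spots held it at 120, 303, 99.7 and 85.1 CPM, and gave 78.1%, 56.4%, 59.8% and 56.4% of its UMIs from 30.8%, 37.2%, 15.7% and 20.5% of all UMIs. Epithelium-rich spots held 14.3, 29.2, 5.70 and 11.1 CPM. In these regions both DES sections lay below both CO sections, whereas in stromal spots, at 23.3, 290.5, 57.1 and 144 CPM, the groups overlapped. The log2 fold changes were -2.30 ± 0.69 in whole sections, -1.47 ± 0.41 in muscle-rich spots, -1.60 ± 0.49 in epithelium-rich spots and -0.77 ± 0.91 in stromal spots, with edgeR adjusted p = 0.129, 0.0758, 0.119 and 0.814. With every section kept, *Sfrp4* passed in muscle-rich spots by DESeq2 (adjusted p = 0.00725) and by edgeR with the replicate block (0.0277) and without the filter (2.59e-06). In epithelium-rich spots it passed by DESeq2 (adjusted p = 0.0380) and by edgeR with the block (0.0171). In whole sections it passed by DESeq2 alone (adjusted p = 0.00123). In whole sections its value was -0.95 without CO B, -2.99 without CO A and -0.32 (edgeR, adjusted p = 0.890) over the spots with no basal marker UMI. Without the mixed muscle-rich clusters *Sfrp4* stood at 120, 303, 133 and 140 CPM, where the groups overlapped, with a log2 fold change of -0.81 (edgeR, adjusted p = 0.466). Without CO B it was -0.66 in muscle-rich, -1.03 in epithelium-rich and 2.0 in stromal spots, and without DES B it was -2.2 in epithelium-rich spots. All 5 smooth muscle markers were found in every section and summed to 12400 and 13950 CPM in CO and 3126 and 3541 CPM in DES whole sections, and stromal markers to 2278 and 2265 against 1701 and 999.5 CPM. In muscle-rich spots stromal markers summed to 3347 and 3655 CPM in CO and 1893 and 1897 in DES. The part of these types in the *Sfrp4* values was not tested.

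*Sfrp2* in whole sections stood at 9.12, 36.3, 34.1 and 20.1 CPM in CO A, CO B, DES A and DES B, with the DES values between the CO values. Stromal spots held 26.9, 154, 119 and 40.4 CPM, epithelium-rich spots 3.21, 25.1, 20.9 and 10.9 CPM, and muscle-rich spots 19.0, 20.2, 35.6 and 51.0 CPM. Only in muscle-rich spots did both DES sections lie above both CO sections. The log2 fold changes were 0.06 in whole sections (95% interval -1.63 to 1.75), -0.23 in stromal spots (-1.83 to 1.37), -0.05 in epithelium-rich spots (-2.33 to 2.23) and 0.88 in muscle-rich spots (0.23 to 1.54, edgeR adjusted p = 0.110). With every section kept, the muscle-rich value passed only by edgeR without the filter (adjusted p = 0.0487), where the gene's own spread had no weight in the test. It did not pass by DESeq2 (adjusted p = 0.307) or by edgeR with the replicate block (0.100). With 1 section left out, the muscle-rich value ran from 0.55 (without DES B) to 1.13 (without DES A). The 95% intervals leave room for differences in either direction outside muscle-rich spots.

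**Figure D3:**
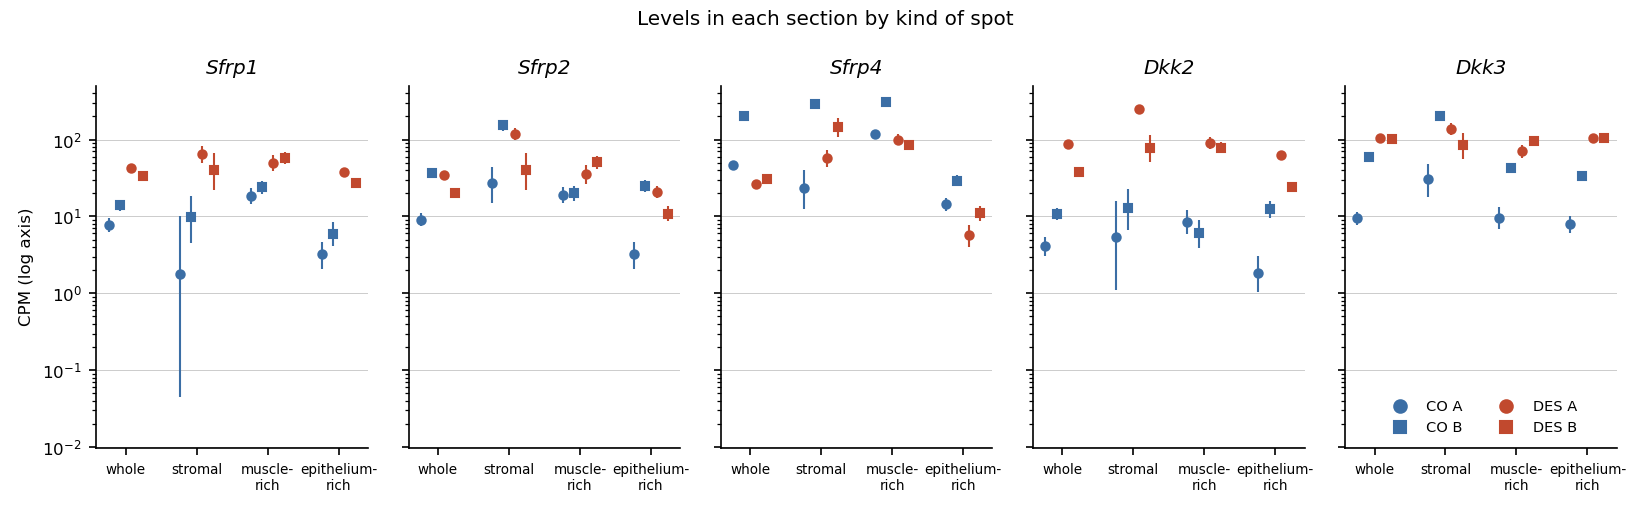
Level of 5 antagonists in each of the 4 sections, as CPM of summed UMIs on a log axis, for whole sections and for stromal, muscle-rich and epithelium-rich spots; circles are sections A, squares sections B, colors mark CO and DES, and bars are 95% Poisson intervals. *Dkk2* and *Sfrp1* are higher in both DES sections in every region, whereas *Sfrp2* overlaps in all but muscle-rich spots.

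Over whole sections, 4 of the 5 members tested had both DES sections on one side of both CO sections (3 above, 1 below), as did 61.6% of 14098 genes, 43.8% with DES above and 17.9% with DES below. By edgeR 0 of the 5 were called, beside 5.30% of those genes, whereas 3 (*Dkk2*, *Sfrp1* and *Sfrp4*) had an unadjusted p below 0.05, as did 3438 of the 14098 genes, and the same 3 were called by DESeq2, beside 12.7% of genes. The groups did not overlap for 2 of 5 members in stromal spots (beside 42.9% of genes), for 5 of 5 in muscle-rich spots (57.9%) and for 4 of 5 in epithelium-rich spots (62.5%).

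**Figure D4:**
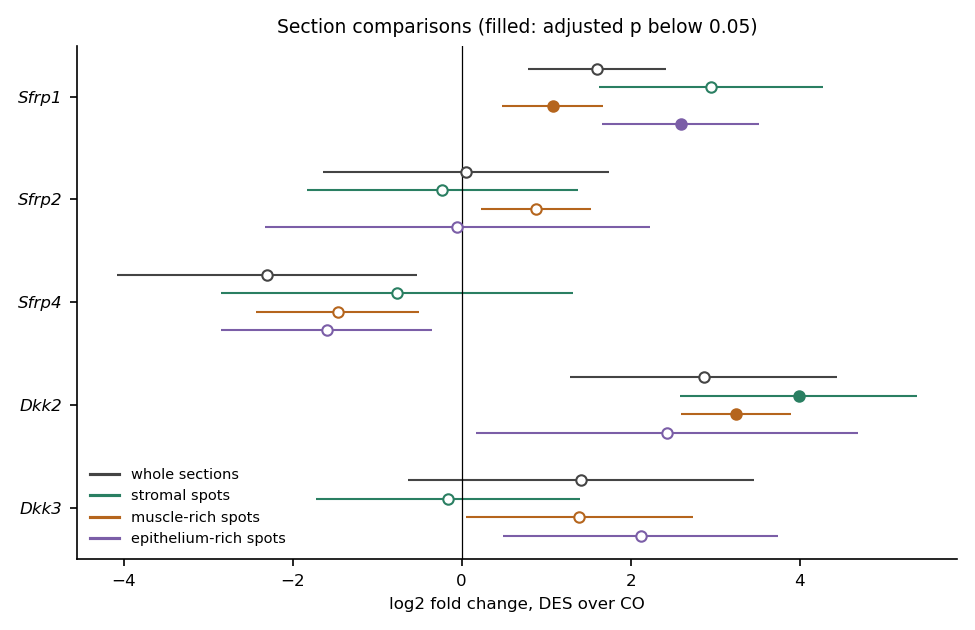
Log2 fold change of DES over CO sections (n = 2 a group) for 5 antagonists, with 95% intervals derived from the F statistic of the edgeR test, in whole sections and in the 3 kinds of spots; filled points passed an adjusted p of 0.05. *Dkk2* passed in stromal (3.99) and muscle-rich spots (3.25) and *Sfrp1* in muscle-rich (1.08) and epithelium-rich spots (2.59).

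Spot clusters within sections showed local maxima. *Sfrp4* reached 1158 CPM (1061 to 1261) in CO B cluster 7, 146 spots that were neither stromal, muscle-rich nor epithelium-rich and gave 24.0% of that section's *Sfrp4* UMIs, and 640 CPM (491 to 821) in DES B cluster 9 (47 spots). The DES B cluster also held that section's highest *Sfrp1*, at 299 CPM, and *Sfrp2*, at 258 CPM. The CO B spots outside the named regions, which are those of cluster 7 and of cluster 10 (17 spots), held basal markers at a summed 1831 CPM and plasma cell markers at 2079 CPM. Whole CO B stood at 160 CPM of basal markers, and whole CO A at 3.36. The part of these types in the CO B levels was not tested. *Dkk2* was highest in the DES A stromal cluster at 247 CPM and in DES B cluster 6 at 153 (10 UMIs), and among clusters of at least 20 spots the lowest DES cluster stood at 14.1 CPM and the highest CO cluster at 24.6 (2 UMIs). *Sfrp2* and *Dkk3* were highest in CO B in its stromal cluster, at 154 and 205 CPM.

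**Figure D5:**
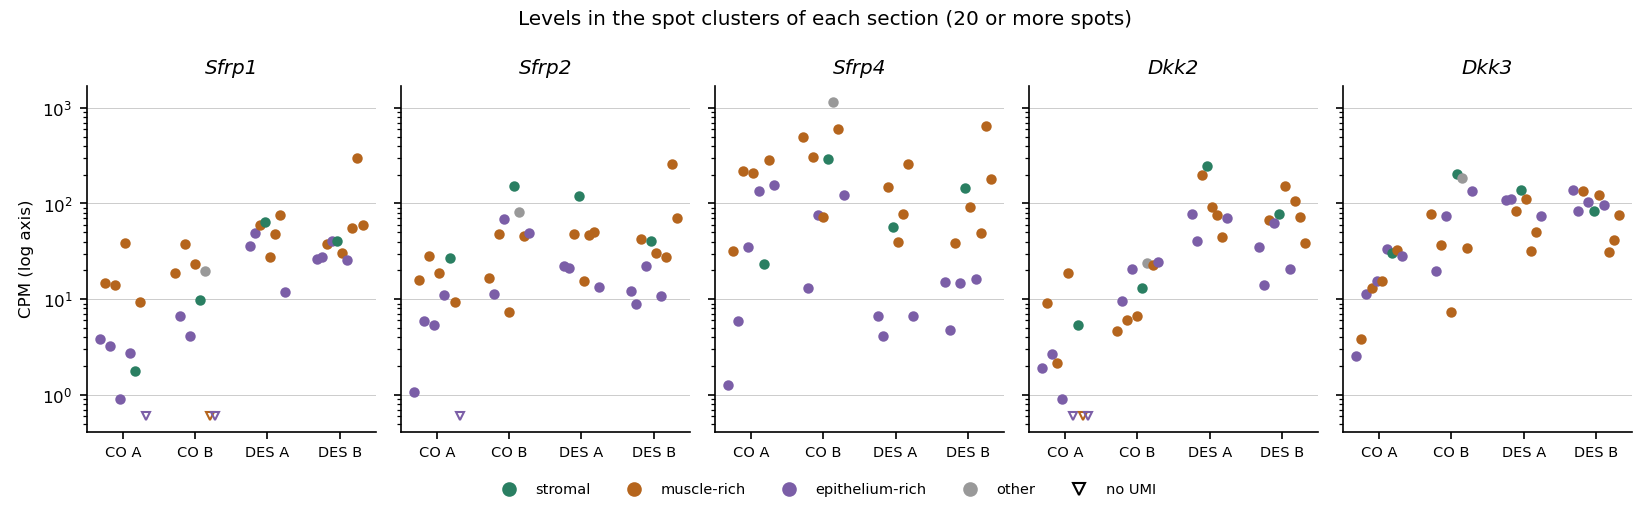
Level of 5 antagonists in each spot cluster of at least 20 spots, as CPM of summed UMIs on a log axis, by section, with colors for the kind of spot and open triangles for clusters with no UMI. The *Dkk2* points of the DES sections run from 14.1 to 247 CPM and those of the CO sections from 0 to 24.6, and *Sfrp4* peaks at 1158 CPM in CO B.

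Over the 40 spot clusters, with log2(CPM + 1) centred within each section, the genes whose pattern was most like that of a member were found among 7329 genes by Pearson's r, as a description of points that share sections and differ in depth. For *Sfrp4* the nearest gene was *Ctla2a*, the gene that names the cells with most *Sfrp4*, at r = 0.948, followed by *Cxcl12* (0.913), a chemokine, and *Olfml2b* (0.898). For *Sfrp2* they were *Tbc1d16* (0.782), *Sema5a* (0.777) and *Pdgfra* (0.761), a receptor of fibroblasts. For *Dkk3* they were *Gpc1* (0.884), *Ngfr* (0.841) and *Efs* (0.839). *Dkk2* was nearest to *Lbh* (0.861), *Mrpl4* (0.823) and *Bcl9l* (0.819), a co-activator of beta-catenin, and *Sfrp1* to *Cd302* (0.798), *Pcolce* (0.785) and *Tspan5* (0.772). Among the members themselves the highest values were 0.476 for *Dkk2* with *Sfrp2* and 0.456 for *Sfrp1* with *Sfrp4*, and *Sfrp1* with *Sfrp2*, both highest in mesothelial cells among the labelled types, had 0.034.

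Wnt ligands were read in the same cells and spots. Of 19 Wnt ligands, the 3 highest in CPM in CO mesothelial cells were *Wnt5a* (189), *Wnt4* (90.3) and *Wnt9a* (14.0), and in CO stromal cells *Wnt5a* (731), *Wnt16* (106) and *Wnt4* (94.4). In *Ctla2a* cells they were *Wnt5a* (159), *Wnt16* (19.0) and *Wnt5b* (12.9). CO epithelial cells had *Wnt4* (49.2), *Wnt7b* (34.8) and *Wnt5a* (33.4) highest, and DES non-basal epithelial cells *Wnt4* (98.7), *Wnt7a* (62.6) and *Wnt5a* (38.1). Of 5 ligands at 5 CPM in non-basal epithelium, *Wnt7a* (ratio 6.96), *Wnt16* (7.32) and *Wnt4* (2.01) were at least 2-fold higher in the DES library, as were 911 of 10119 genes. In mesothelial cells, 1 of 6 ligands, *Wnt5b* (2.21), was, as were 245 of 10570 genes.

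In the sections the ligand list had 4 of 12 tested genes higher in DES and 0 lower in whole sections, with a median log2 fold change of 1.58 beside -0.0052 over all genes tested, of which 5.30% were called in either direction. *Wnt4* rose by 1.93 (edgeR, adjusted p = 0.0284) and *Wnt7b* by 1.63 (edgeR, adjusted p = 0.0435), whereas in non-basal epithelial cells *Wnt7b* had a DES to CO ratio of 0.755 (0.720 to 0.793). *Wnt3a* rose from 0 and 0 UMIs in CO to 24 and 20 in DES, and *Wnt10a* from 0 and 6 to 290 and 196 UMIs. In non-basal epithelial cells *Wnt3a* had 0 CO and 2 DES UMIs, and *Wnt10a* 0 CO and 6 DES UMIs. In stromal spots, *Wnt4* was the 1 of 5 ligands called (2.02), beside 1.47% of genes. In muscle-rich spots 4 of 7 were higher (*Wnt4* 2.41, *Wnt7a* 2.23, *Wnt7b* 3.0 and *Wnt10a*), beside 8.37% of genes called, and in epithelium-rich spots 3 of 11 (*Wnt4* 1.66, *Wnt3a* and *Wnt10a*), beside 5.97%. Without the mixed clusters, *Wnt7b* in DES muscle-rich spots fell from 76.0 and 70.8 to 29.2 and 26.1 CPM. *Wnt4* there fell from 69.0 and 83.65 to 36.8 and 52.2 CPM, beside 14.3 and 9.50 in CO. Epithelial and basal markers of the muscle-rich spots differed between groups as given above. Basal markers also differed in whole sections and in stromal and epithelium-rich spots. The part of these types in the ligand values was not tested.

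Few receptors passed. In whole sections, of 15 tested, *Fzd10* rose by 1.92 and *Fzd5* fell by 1.43 on the log2 scale, with a list median of 0.22, so 2 of 15 were called beside the 5.30% of all genes. *Fzd10* also rose in muscle-rich spots (3.23), and in epithelium-rich spots *Fzd3* rose (1.35) and *Fzd5* fell by 1.53. In stromal spots 0 of 7 receptors were called by edgeR or DESeq2, and 0 had an unadjusted p below 0.05. DESeq2 called 4 receptors in whole sections, 1 in muscle-rich and 3 in epithelium-rich spots. Over all genes it called 1791 of 14098, 971 of 12193 and 1750 of 13158. In non-basal epithelial cells, of 12 receptors at 5 CPM, *Fzd10* (ratio 5.66) and *Fzd3* (2.42) were at least 2-fold higher in the DES library and *Fzd5* (0.356) and *Ror2* (0.473) at least 2-fold lower, beside 911 genes higher and 826 lower of 10119. *Lrp5* and *Lrp6*, the co-receptors bound by Dickkopf proteins, had ratios of 0.891 and 0.930.

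Of 14 genes known as targets of the pathway, 10 reached 5 CPM in non-basal epithelial cells, and 6 were at least 2-fold higher in the DES library (*Tcf7* 3.66, *En2* 3.64, *Axin2* 3.27, *Nkd2* 2.94, *Tnfrsf19* 2.85 and *Znrf3* 2.02) and *Ccnd1* lower (0.462), beside 17.2% of all genes past 2-fold in either direction. In mesothelial cells 0 of 7 were higher and *Ccnd1* was lower (0.404), beside 5.11% of genes. In the sections, with the same shares of all genes called as above, 1 of 13 targets rose in whole sections (*Ccnd2*, 1.59), 3 of 10 in muscle-rich spots (*Nkd2* 1.99, *Tcf7* 1.86 and *Ccnd2* 1.75) and 1 of 11 in epithelium-rich spots (*Nkd2*, 2.36). In stromal spots 0 of 8 were called by edgeR or DESeq2, while 5 had an unadjusted p below 0.05, as did 1194 of 8914 genes. DESeq2 called 4 targets in whole sections, 2 in muscle-rich and 3 in epithelium-rich spots. Over all genes it called 1791 of 14098, 971 of 12193 and 1750 of 13158.

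Of 10 other secreted or membrane antagonists, 4 could be tested in whole sections and 4 in epithelium-rich spots, 3 in muscle-rich spots and 1 in stromal spots. By edgeR 0 were called in any region, whereas 2, 2, 3 and 0 had an unadjusted p below 0.05 in these regions and DESeq2 called 1 in whole sections. Over all genes an unadjusted p below 0.05 was found for 3438 of 14098, 3517 of 13158, 2786 of 12193 and 1194 of 8914, and DESeq2 called 12.7% in whole sections. The list medians were -0.06, -0.06, 1.57 and 0.61. In single cells *Dkkl1*, a Dickkopf-like gene, had a ratio of 0.435 in non-basal epithelium, and *Frzb*, a further *Sfrp* family member, had 0.889 in mesothelial cells.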

How the data were processed

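Single-cell and section values are raw UMI counts that the authors deposited after Cell Ranger 3.0.1 (cells) and Space Ranger 1.2.2 (sections) on mm10, with bcl2fastq 2.20.0.422, per the submitters' processing notes. The authors checked barcode swapping and removed doublets with DropletUtils and scran, and their cell types and clusters were used, which were formed on the same counts. Of 49049 cells in the metadata, 350 had no counts and were left out.

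Counts were summed by cell type, cluster, section or kind of spot and given as CPM. Intervals are 95% exact Poisson, and for ratios conditional binomial, and cover counting error only. Shares of cells used cells thinned to 3000 UMIs (seed 20230). Muscle-rich and epithelium-rich spots are clusters, other than the stromal one, whose summed smooth muscle or, failing that, epithelial marker CPM exceeded the section's. Sections (2 CO, 2 DES, separate mice) were compared on summed counts with edgeR 4.0.16 (limma 3.58.1, R 4.3.3), TMM scaling, filterByExpr, quasi-likelihood tests and Benjamini-Hochberg adjustment over all genes at 0.05. The SE of an edgeR log2 fold change was derived as its absolute value divided by the square root of the test's F statistic. Its 95% interval used the t distribution with the test's degrees of freedom. With 2 sections a group, p-values rest on the spread between these sections, which edgeR estimates with information shared over all genes. Without the filter, in stromal and muscle-rich spots, the gene's own spread had no weight in the test. DESeq2 1.42.0, DESeq2 size factors, no filter beyond 1 UMI, a block on the section letter, leaving out each section, and 3 sets of spots chosen after seeing the data were alternatives. The letters share no batch in the labels, so they were not taken as pairs. On simulated data with known changes, edgeR recovered 91.7% of 4-fold increases and 13.3% of 2-fold increases in whole sections, and 73.9% and 3.57% in stromal spots. Of decreases of the same sizes it recovered 84.3% and 13.5% in whole sections and 27.3% and 2.63% in stromal spots. The simulation gave all genes of a comparison the same dispersion. These shares therefore need not hold for genes, members included, that vary more between sections. Python 3.11.15 with numpy 2.4.6, scipy 1.17.1, pandas 2.3.3 and matplotlib 3.10.9 was used.

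All 7 members are reported. From the lists of ligands, receptors, targets and other antagonists, the genes past the threshold and the 3 ligands highest in CPM were named, and for each member with a mean of at least 20 CPM the 3 most similar genes. *Lrp5*, *Lrp6*, *Frzb* and the genes in the text on markers were named outside this rule, after their values had been seen. The members and lists were chosen with earlier results of these data known. Promoters were read from a RefSeq table.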

Additional observations from a re-analysis of the deposited data

Results flagged for a closer look

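The DES to CO ratio of *Sfrp1* was 2.57 in non-basal epithelial cells and 0.591 in mesothelial cells, opposite directions under the same contrast. With 1 library a condition the difference between these ratios was not tested. The lymphocytes of the same libraries had a ratio of 1.98 (0.985 to 4.06), and the cells with no assigned type 0.590.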

How the results depend on the processing

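With 2 sections a group, leaving out 1 section moved most counts, and the lone section was then assumed to vary like the others. Genes called numbered 747 in whole sections, 131 in stromal, 1020 in muscle-rich and 786 in epithelium-rich spots, and 3 to 2819, 40 to 357, 299 to 2785 and 0 to 2843 with 1 section left out. DESeq2 called 1791 in whole sections and 1750 in epithelium-rich spots. Without the filter, edgeR called 714 in stromal, 2139 in muscle-rich and 1479 in epithelium-rich spots. Spots with no basal marker UMI gave 47, and muscle-rich spots without the mixed clusters 103. The replicate block, on letters that pair nothing (correlations of deviations -0.031, 0.087, 0.036 and 0.056), gave 527 in whole sections, 453 in stromal, 1370 in muscle-rich and 1373 in epithelium-rich spots. Log2 fold changes that changed sign were those of *Sfrp2* (epithelium-rich 0.38 and stromal 0.076 under the block, -0.18 in whole sections without basal marker spots, and with 1 section left out -0.61 to 1.33 in whole sections, -1.16 to 1.60 in stromal and -0.90 to 2.01 in epithelium-rich spots), of *Dkk3* (stromal 0.30 under the block, 0.026 in the top 15% of spots and -0.95 to 1.85 with 1 section left out, whole sections -0.18 without basal marker spots) and of *Sfrp4* (stromal -1.68 to 2.0 with 1 section left out). The causes were not tested. *Dkk2* and *Sfrp1* kept their direction in all alternatives run in each region. Thinning to 5000 UMIs or not at all gave shares of 56.8% and 72.9% (*Sfrp1*) and 59.8% and 65.9% (*Sfrp2*) in CO mesothelial cells, 74.9% and 72.0% (*Sfrp4*) and 32.3% and 34.8% (*Dkk3*) in *Ctla2a* cells, and 36.6% and 42.2% (*Dkk2*) in endothelial cells. The count of members past 2-fold in non-basal epithelium was 3, with *Dkk3* added, at a minimum of 1 CPM (1680 genes higher and 1289 lower of 12724) or without the 20 most abundant genes (1050 and 864 of 10574), and in mesothelial cells 0 in every alternative.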
